A study of Homo sapiens
Mus musculus with 24 samples.

Results

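The genes described here are interferon-stimulated genes of human tumour cells grown in mice. They were a list of 42 human symbols, and members were found by an exact match in the symbol column of the human table. Of these, 40 were found among 18880 human genes, and OAS1 and EPSTI1, whose symbols are not in that column, were not analysed here. All 40 passed the filter on low counts and entered every test. The study asked whether a Moringa oleifera seed concentrate (MC), fed with or without chemotherapy, alters the growth of a triple negative breast cancer xenograft in obese mice. Each of the 24 libraries was made from the tumour of 1 mouse. Reads were counted on human genes, taken to come from the injected cells, and on murine genes, taken to come from the host. The total per library ranged from 7796231 to 17621273 counts on human genes and from 3664056 to 9892470 on murine genes.

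All mice were female B6/Rag1KO animals. This strain lacks mature T and B lymphocytes through loss of Rag1 but keeps natural killer and myeloid cells. All were injected with MDA-MB-231 cells, a human breast adenocarcinoma line, at the age of 14 weeks, and all groups but Lean ate a high-fat diet. The CTRL group (4 libraries) received saline into the peritoneum once a week. The Chemo group (5 libraries) received doxorubicin at 2 mg/kg together with cyclophosphamide at 100 mg/kg, by the same route each week. The MC group (5 libraries) ate the high-fat diet with 0.6% of the concentrate, and the MC + Chemo group (6 libraries) had both. No injection is given here for the MC group, so in comparisons that include it treatment and injection cannot be told apart. Treatment lasted 4 weeks. The Lean group (4 libraries) ate a lean diet, carried the same tumour and was followed as a diet control. Libraries are named below by group and mouse number.

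Type I and type III interferons bind receptors on the cell surface and act through the kinases JAK1 and TYK2. These phosphorylate STAT proteins, among them STAT2, which acts with IRF9 to switch on a shared set of target genes. The products sense viral RNA, degrade it, block its translation, attach the ubiquitin-like protein ISG15 to other proteins, or feed back on the pathway. In tumour cells the same genes are known to respond to nucleic acids of the cell itself and to DNA-damaging drugs, and human interferon receptors respond poorly to murine interferons.

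Before any result, the labels were checked against markers of the line. MDA-MB-231 is known for a mesenchymal profile, with much vimentin (VIM) and little or no E-cadherin (CDH1) and EPCAM. The library CTRL 17 matched this profile, with normalized counts of 2.73 for CDH1, 73.8 for EPCAM and 71918 for VIM. CTRL 44 held 312 for CDH1, 552 for EPCAM and 50209 for VIM, and Lean 24 held 633, 1207 and 24619. The other 21 libraries went against the known profile in these 3 genes. Their CDH1 lay between 1656 and 4472, EPCAM between 2411 and 5399, and VIM between 4402 and 21956. Of markers listed as present, CD44 was at 3784 to 5652, EGFR at 1212 to 3277, KRT18 at 9360 to 20452 and KRT19 at 18701 to 38730 in the 21. In CTRL 17, CTRL 44 and Lean 24, CD44 (3889 to 4488) and EGFR (2571 to 3765) overlapped these ranges. KRT18 (2125 to 8014) and KRT19 (6155 to 12199) lay below them. ESR1 and ERBB2, listed as low, were at 10.7 to 88.3 and 341 to 769 in the 21. ZEB1, a repressor of CDH1 that was picked after these values were seen, was at 1344, 1376 and 568 in CTRL 17, CTRL 44 and Lean 24 and at 70.8 to 420.1 in the others. The members' cells are therefore called human tumour cells here, with no claim on their type. The members' counts and medians against CTRL, and those of the other lists, are given with and without the libraries whose CDH1 lies below 1000, which are CTRL 17, CTRL 44 and Lean 24. Without them CTRL has 2 libraries, CTRL 31 and CTRL 70.

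Other labels touch the results less. The title of the library MC + Chemo 5 puts it in MC + Chemo, while another of its fields names the concentrate without chemotherapy. Its title was followed, and results were repeated without it and with it in MC. For Lean 3, MC 41 and MC 42 the RNA went through a further column cleanup before sequencing. In these bulk tumours, fewer tumour cells that express a gene and less of its RNA in each cell cannot be told apart.

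The members' levels spread most among the CTRL libraries. CTRL 17 was the lowest of all 24 libraries in 34 of 40 members and CTRL 44 in 5, against 15.5% and 10.9% of all genes tested. Both were among the lowest 4 libraries in all 40 members, Lean 24 in 37 and MC 6 in 17. CTRL 17 and CTRL 44 both lay below CTRL 31 and CTRL 70 in 39 of 40 members, an order that 30.4% of all genes showed. Summed over the members, normalized counts were 10255 in CTRL 17 and 19211 in CTRL 44 but 72877 in CTRL 31 and 62037 in CTRL 70. The Chemo libraries summed to between 77203 and 106998, MC to between 56965 and 86071, MC + Chemo to between 91288 and 111370, and Lean to between 36102 in Lean 24 and 84190.

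**Figure D1:**
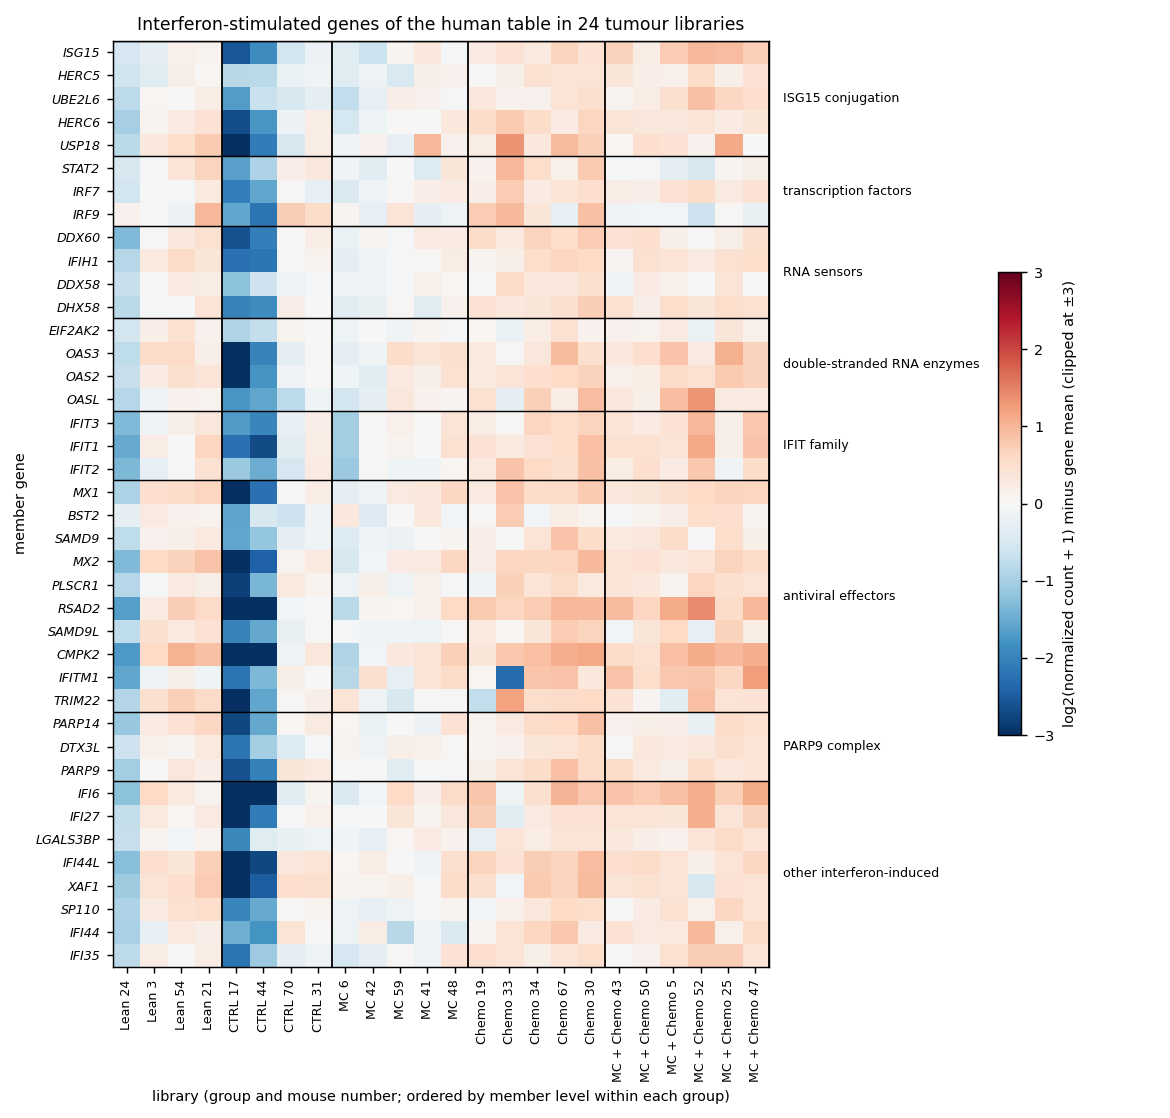
Each row is a member, grouped by role, and each column a library; colour is log2(normalized count + 1) minus the gene's mean over 24 libraries, clipped at 3. CTRL 17 and CTRL 44 are blue in nearly every row, Lean 24 is paler blue, and the 11 libraries with chemotherapy are mostly red, with IFITM1 in Chemo 33 as a blue exception.

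The order of the libraries in the members was that of CDH1 at its lower end. The 4 libraries with the least CDH1 were CTRL 17, CTRL 44, Lean 24 and MC 6. The same 4, in the same order, had the lowest member level, which is the mean over the 40 members of the centred log2 value, at -2.89, -1.74, -0.91 and -0.31. The other 20 libraries ranged from -0.09 to 0.63. The part of this marker difference in the results below was not tested, and CDH1 itself did not pass the test in MC + Chemo against CTRL (fitted log2 fold change 1.27 ± 0.73 (SE), edgeR adjusted p = 0.308). VIM did (-1.78 ± 0.46, adjusted p = 0.0481).

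**Figure D2:**
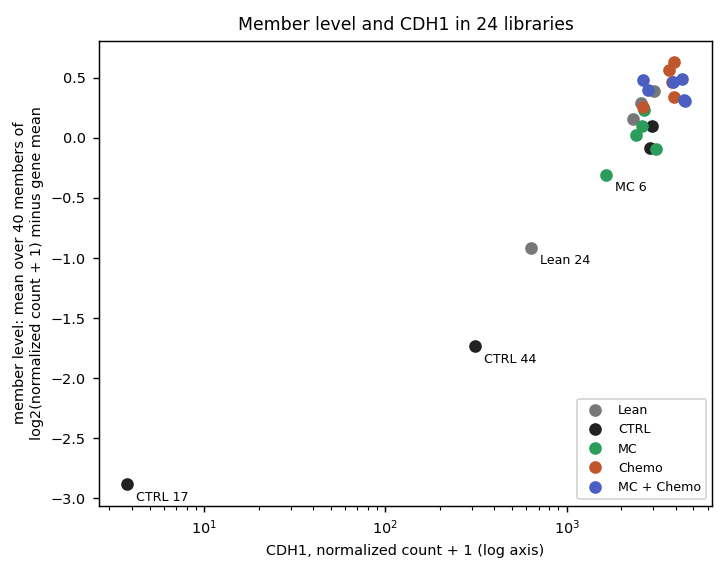
Each point is 1 library, with the normalized count of CDH1 plus 1 on a log axis and the member level on the vertical axis. CTRL 17 at -2.89, CTRL 44 at -1.74, Lean 24 at -0.91 and MC 6 at -0.31 descend with CDH1, and the other 20 libraries lie together at the upper right.

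The spread within groups showed the same split. The median over members of the SD of log2 values was 1.240 in CTRL and 0.61 in Lean, against 0.27 in Chemo, 0.30 in MC and 0.24 in MC + Chemo. Over all genes tested these medians were 0.44, 0.30, 0.32, 0.31 and 0.30 in the same order of groups. The spread was largest in CTRL for 38 of 40 members and for 48.2% of all genes. From CTRL 17 to CTRL 31 the members differed by a median of 2.28 on the log2 scale (0.72 in HERC5 to 8.20 in CMPK2), and the gap exceeded 2 in 27 of 40 members and in 8.7% of all genes. From Lean 24 to the mean of the other Lean libraries it was 1.19 (0.15 to 2.57). Across the 40 members the gaps in CTRL and in Lean, which share no library, had a Pearson r of 0.73 and a Spearman rho of 0.68. The gaps in CTRL and those from MC 6 to the mean of the other MC libraries had an r of 0.29 and a rho of 0.19. Members are not independent replicates, so no p is given.

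Comparisons against CTRL were fitted with edgeR's quasi-likelihood test over the 20 libraries of the high-fat groups, and a gene was called at a Benjamini-Hochberg adjusted p below 0.05 over all 16434 genes tested. Against CTRL, the members of MC + Chemo had a median log2 fold change of 1.00, with 39 of 40 above 0 (47.5% of all genes). In this comparison 7 members rose and none fell, 17.5% of the list, where 0.59% of all genes rose and 2.09% were called in either direction. The members that rose were ISG15, UBE2L6, HERC5, OASL, IFI35, DTX3L and SAMD9. All 7 also met the 3 criteria of the study (adjusted p below 0.05, mean above 30 and fold above 1.5), as 1.6% of all genes did. An unadjusted p below 0.05 with a higher level was found in 34 members and in 9.19% of all genes. With DESeq2, the tool of the study, 25 members rose, where 3.16% of all genes did. In Chemo the median was 1.10, with all 40 above 0 (47.7% of all genes). No member was called by edgeR (0.0% of all genes), 37 had an unadjusted p below 0.05 (7.84% of all genes in this direction), and DESeq2 called 18 members higher (1.35%). In MC the median was 0.64, again with 40 of 40 above 0 (46.9% of all genes). Neither tool called a member there (0.0% of genes by edgeR and 0.0919% by DESeq2), and 12 had an unadjusted p below 0.05 in edgeR (4.79%). The median over all genes was -0.02 in each of the 3. All 3 use the same CTRL libraries, so their values stand side by side and are not independent of one another.

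Without CTRL 17, CTRL 44 and Lean 24 these differences shrank. The median log2 fold change of the members was then 0.45 in Chemo (39 of 40 above 0), 0.02 in MC (22 of 40) and 0.45 in MC + Chemo (37 of 40). edgeR called no member in any of the 3 comparisons, and no gene of the whole table. An unadjusted p below 0.05 with a higher level was then found in 22 members in Chemo (2.2% of all genes), 0 in MC (2.98%) and 17 in MC + Chemo (4.82%). DESeq2 called none in Chemo and MC and 3 in MC + Chemo, ISG15, RSAD2 and UBE2L6 (32 of 15946 genes in all, 0.201%). CTRL 17 and CTRL 44 are the low CTRL libraries, so the members whose treated libraries all lay above CTRL were the same with and without them in number. They were 21 of 40 in Chemo and 20 of 40 in MC + Chemo, where 1.92% and 2.65% of all genes lay wholly above 4 CTRL libraries and 4.06% and 8.46% above the remaining 2. In MC no member lay wholly above CTRL (0.748% of all genes). Without CTRL 17 and CTRL 44, 3 members in MC + Chemo and 2 in MC lay wholly below the remaining CTRL libraries (9.78% and 5.62% of all genes).

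Members of ISG15 conjugation led the calls. ISG15 (ENSG00000187608) is the ubiquitin-like modifier itself. Its normalized counts were 543, 2773, 849 and 2155 in CTRL 17, 31, 44 and 70, 3716, 4249, 4282, 3834 and 5044 in Chemo 19, 30, 33, 34 and 67, and 2433, 3954, 2019, 3061 and 3338 in MC 6, 41, 42, 48 and 59, while the 6 MC + Chemo libraries ran from 3673 to 6149 with a median of 5258. All libraries with chemotherapy lay above all CTRL libraries, and MC overlapped both. The log2 fold change was 1.71 ± 0.33 (SE) in MC + Chemo, 3.27-fold (adjusted p = 0.0305 in edgeR and 0.000141 in DESeq2), 1.41 ± 0.33 in Chemo (adjusted p = 0.0782) and 0.90 ± 0.33 in MC (adjusted p = 0.406). Without CTRL 17 and CTRL 44 the 3 values were 1.07, 0.77 and 0.26.

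UBE2L6 (ENSG00000156587), the enzyme that carries ISG15 to its targets, held 159.5, 422, 321 and 367 in CTRL 17, 31, 44 and 70 and 648, 719.9, 563, 566 and 679 in Chemo 19, 30, 33, 34 and 67, and the 6 MC + Chemo libraries ran from 549.7 to 941 with a median of 724. It rose 2.25-fold in MC + Chemo (1.17 ± 0.22, adjusted p = 0.0305), with every library of both groups above CTRL. HERC5 (ENSG00000138646), a ligase for ISG15, held 465, 768, 468 and 718 in CTRL 17, 31, 44 and 70 and ranged from 918 to 1206 (median 998, n = 6) in MC + Chemo. It rose by a smaller amount, 1.68-fold (0.75 ± 0.16, adjusted p = 0.033), and was the member that differed least between CTRL 17 and CTRL 31. Both called members fell short of the threshold in Chemo, with adjusted p-values of 0.0764 for UBE2L6 and 0.0767 for HERC5, where DESeq2 called them (0.00673 and 0.00804).

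USP18 (ENSG00000184979) removes ISG15 and restrains the type I receptor. Its counts were 1.82, 116, 22.4 and 71.6 in CTRL 17, 31, 44 and 70, 116, 163, 256, 125 and 192 in Chemo 19, 30, 33, 34 and 67, and 92.0, 197, 109, 109 and 83.3 in MC 6, 41, 42, 48 and 59, and the 6 MC + Chemo libraries ran from 101 to 222 with a median of 122. In CTRL 17 the value rests on 2 reads. The fitted change was largest in Chemo (1.68 ± 0.55, adjusted p = 0.133), where no library overlapped CTRL, and MC + Chemo overlapped CTRL (1.35 ± 0.53, adjusted p = 0.143). HERC6, the other HERC ligase listed, had 1.23 ± 0.36 in Chemo and 1.01 ± 0.35 in MC + Chemo, and every library of both groups lay above CTRL.

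Of the 3 transcription factors, edgeR called none in any comparison against CTRL, and their values differed among themselves. STAT2 (ENSG00000170581), a partner in the factor that type I interferon activates, held 359, 1395, 584 and 1276 in CTRL 17, 31, 44 and 70 and 1216, 1908, 2236, 1612 and 1229 in Chemo 19, 30, 33, 34 and 67. In MC it held 1028, 839, 874, 1421 and 1129 in MC 6, 41, 42, 48 and 59, and the 6 MC + Chemo libraries ran from 799 to 1259 with a median of 1084. CTRL 31 and CTRL 70 lay above every MC + Chemo library, and the Chemo libraries lay on both sides of them. Its log2 fold change was 0.85 ± 0.30 in Chemo, 0.22 ± 0.30 in MC and 0.20 ± 0.28 in MC + Chemo, none called (adjusted p = 0.155, 0.795 and 0.708).

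IRF9 (ENSG00000213928), the DNA-binding partner of STAT2, rests on few counts. It held 19.1, 86.6, 12.1 and 98.2 in CTRL 17, 31, 44 and 70 and 100, 109, 115, 76.1 and 49.3 in Chemo 19, 30, 33, 34 and 67. In MC it held 62.2, 48.2, 49.2, 52.6 and 76.4 in MC 6, 41, 42, 48 and 59, and the 6 MC + Chemo libraries ran from 37.7 to 60.1 with a median of 55.1. It was the only member with a fitted change below 0 in MC + Chemo against CTRL (-0.06 ± 0.41, adjusted p = 0.946), and -0.84 without CTRL 17 and CTRL 44. IRF7, which drives further interferon production, had fitted changes of 1.13 ± 0.29 in Chemo and 1.05 ± 0.28 in MC + Chemo (adjusted p = 0.091 and 0.0543), and every library with chemotherapy lay above CTRL.

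The 4 RNA sensors are helicases of the cytoplasm. DDX60 (ENSG00000137628), which helps RIG-I signal, held 267, 1919.7, 401 and 1654 in CTRL 17, 31, 44 and 70 and 2427, 2784, 2029.6, 2617 and 2387 in Chemo 19, 30, 33, 34 and 67, while the 6 MC + Chemo libraries ran from 1683 to 2338 with a median of 2042. The Chemo libraries lay above CTRL and MC + Chemo overlapped it (1.20 ± 0.38 and 0.93 ± 0.36, adjusted p = 0.124 and 0.138). DDX58 (RIG-I), IFIH1 (MDA5) and DHX58 (LGP2) had log2 fold changes of 0.79 ± 0.18, 1.11 ± 0.35 and 1.05 ± 0.33 in Chemo. DESeq2 called all 4 in Chemo and 3 of 4 in MC + Chemo, where DDX60 missed it (0.0823), and edgeR called none.

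Of the enzymes that double-stranded RNA activates, OASL (ENSG00000135114), an OAS-like protein without synthetase activity, rose in MC + Chemo. Its counts were 55.6, 174, 63.9 and 110.1 in CTRL 17, 31, 44 and 70 and 262, 361, 155, 310.0 and 223 in Chemo 19, 30, 33, 34 and 67, and the 6 MC + Chemo libraries ran from 214 to 475 with a median of 233. Chemo 33 lay between CTRL 70 and CTRL 31, and no MC + Chemo library overlapped CTRL. The change was 2.86-fold in MC + Chemo (1.51 ± 0.32, adjusted p = 0.0327) and 1.37 ± 0.33 on the log2 scale in Chemo (adjusted p = 0.0782). OAS3 (ENSG00000111331), which makes the activator of RNase L, held 63.8, 2332, 565 and 1883 in CTRL 17, 31, 44 and 70 and 1831, 2956, 2054, 3175 and 3329 in MC 6, 41, 42, 48 and 59, and the 6 MC + Chemo libraries ran from 2717 to 4741 with a median of 3408. Its fitted change was 1.53 ± 0.53 in MC + Chemo and 1.13 ± 0.54 in MC (adjusted p = 0.101 and 0.459), and the count of CTRL 31 was 36.6 times that of CTRL 17.

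EIF2AK2 (ENSG00000055332), the kinase PKR that halts translation, had small changes. CTRL held 1455, 2738, 1673 and 2953 in CTRL 17, 31, 44 and 70 and Chemo ranged from 2386 to 3749 (median 3005, n = 5), and the 6 MC + Chemo libraries ran from 2371 to 3529.6 with a median of 3006. CTRL 31 and CTRL 70 lay among the treated libraries. It had a fitted change of 0.45 ± 0.18 in Chemo and 0.44 ± 0.17 in MC + Chemo (adjusted p = 0.204 and 0.146), which became 0.08 and 0.07 without CTRL 17 and CTRL 44.

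The IFIT proteins bind viral RNA and block its translation. IFIT3 (ENSG00000119917) held 809, 3014, 678 and 2213 in CTRL 17, 31, 44 and 70, 3061, 4226, 2705, 4104 and 3786 in Chemo 19, 30, 33, 34 and 67 and 1283, 2715, 2689, 3439 and 2944 in MC 6, 41, 42, 48 and 59, and the 6 MC + Chemo libraries ran from 2971 to 5238 with a median of 3555. MC 6 lay below CTRL 31 and CTRL 70, as it did for IFIT1 and IFIT2. The log2 fold changes of IFIT1, IFIT2 and IFIT3 were 1.37 ± 0.42, 0.95 ± 0.28 and 1.18 ± 0.34 in MC + Chemo, and all 3 passed the test in DESeq2 (adjusted p = 0.0177, 0.0191 and 0.0161) and none in edgeR.

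Of all members, the antiviral effector RSAD2 had the largest fitted change in Chemo and in MC + Chemo. RSAD2 (ENSG00000134321), viperin, makes a chain-terminating nucleotide that stops viral polymerases. It stood at 3.65, 381, 35.4 and 363 in CTRL 17, 31, 44 and 70, at 659, 747, 600.4, 645 and 752 in Chemo 19, 30, 33, 34 and 67, and at 217, 425, 407, 581 and 399.9 in MC 6, 41, 42, 48 and 59, and the 6 MC + Chemo libraries ran from 558 to 1029.7 with a median of 754. Every library with chemotherapy lay above CTRL, and MC 48 lay above MC + Chemo 25. The change was 1.93 ± 0.62 in MC + Chemo and 1.79 ± 0.63 in Chemo (adjusted p = 0.0826 and 0.154), and it was 1.00 and 0.86 without CTRL 17 and CTRL 44. CTRL 17 counted 4 reads. DESeq2 called it in MC + Chemo with all libraries (0.0499) and without these (0.0479).

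CMPK2 (ENSG00000134326), a nucleotide kinase whose gene neighbours RSAD2, held 0, 292, 28.5 and 217 in CTRL 17, 31, 44 and 70 and 297, 517, 406, 435 and 494 in Chemo 19, 30, 33, 34 and 67, and the 6 MC + Chemo libraries ran from 318 to 501 with a median of 446. It was not counted at all in CTRL 17, and every library with chemotherapy lay above CTRL. Its fitted changes of 1.67 ± 0.66 and 1.65 ± 0.64 in Chemo and MC + Chemo were not called (adjusted p = 0.192 and 0.135). MX1 (ENSG00000157601), a GTPase that traps viral particles, held 55.6, 3254, 589.6 and 2681 in CTRL 17, 31, 44 and 70, 3357, 4774, 5066, 4066 and 4149 in Chemo 19, 30, 33, 34 and 67 and 2309.9, 3464, 2526, 4278 and 3375 in MC 6, 41, 42, 48 and 59, and the 6 MC + Chemo libraries ran from 3479 to 4439 with a median of 4025. Every library with chemotherapy lay above CTRL, and its fitted changes of 1.37 ± 0.58 and 1.26 ± 0.56 did not pass (adjusted p = 0.219 and 0.188).

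SAMD9 (ENSG00000205413), a restriction factor for poxviruses, was the called effector. It held 350.0, 953, 464 and 849.5 in CTRL 17, 31, 44 and 70 and 1184, 1499, 1015, 1371 and 1866 in Chemo 19, 30, 33, 34 and 67, and the 6 MC + Chemo libraries ran from 1039 to 1498 with a median of 1278. Every library of both groups lay above CTRL, and it rose 1.95-fold in MC + Chemo (0.96 ± 0.23, adjusted p = 0.0393). The other effectors BST2, PLSCR1, SAMD9L, TRIM22, MX2 and IFITM1 had changes between 0.84 ± 0.23 (BST2) and 1.37 ± 0.47 (IFITM1) in MC + Chemo, and DESeq2 called 5 of the 10 effectors. IFITM1 split the Chemo group, with 28.3 in Chemo 33 and 151 to 264 in the other 4.

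PARP9 and DTX3L act together as an ADP-ribosylating ubiquitin ligase, and PARP14 is a related enzyme. DTX3L (ENSG00000163840) held 337, 1470.3, 747 and 1149 in CTRL 17, 31, 44 and 70 and 1633, 1685, 1364, 1559 and 1714 in MC 6, 41, 42, 48 and 59, and the 6 MC + Chemo libraries ran from 1567 to 2105 with a median of 1917. Every MC + Chemo library lay above CTRL, and MC 42 lay below CTRL 31. It rose 2.02-fold in MC + Chemo (1.01 ± 0.25, adjusted p = 0.0415). PARP14 (ENSG00000173193) held 386, 3092, 881 and 2693 in CTRL 17, 31, 44 and 70 and 2750.4, 4725, 3082, 3745 and 3881 in Chemo 19, 30, 33, 34 and 67, and the 6 MC + Chemo libraries ran from 2194 to 3751 with a median of 2919. The MC + Chemo libraries lay on both sides of CTRL 31 and CTRL 70. All Chemo libraries lay above CTRL 70, and Chemo 19 and Chemo 33 lay below CTRL 31. The changes of PARP14, 1.03 ± 0.38 in Chemo and 0.76 ± 0.37 in MC + Chemo, were not called (adjusted p = 0.169 and 0.225).

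Among the other interferon-induced genes, IFI35 (ENSG00000068079), which binds the regulator NMI, rose in MC + Chemo. CTRL held 35.5, 148, 77.7 and 137 in CTRL 17, 31, 44 and 70, Chemo held 235, 238, 219, 188 and 219 in Chemo 19, 30, 33, 34 and 67, and the 6 MC + Chemo libraries ran from 170.2 to 275 with a median of 222. No library of these groups overlapped CTRL. The change was 2.22-fold (1.15 ± 0.28, adjusted p = 0.0415). IFI6 (ENSG00000126709), a membrane protein that limits cell death, held 367, 15513, 1265 and 11698 in CTRL 17, 31, 44 and 70, 26019, 25617, 12988, 20375 and 29379 in Chemo 19, 30, 33, 34 and 67 and 10838, 16804, 13684, 21497 and 22200.0 in MC 6, 41, 42, 48 and 59, and the 6 MC + Chemo libraries ran from 23832 to 31629 with a median of 26649. All MC + Chemo libraries lay above every CTRL and MC library, and Chemo 33 lay between CTRL 70 and CTRL 31. Its changes of 1.91 ± 0.62 in MC + Chemo, 1.65 ± 0.63 in Chemo and 1.23 ± 0.62 in MC carried large errors and were not called (adjusted p = 0.0858, 0.177 and 0.48). The count in CTRL 31 was 42.2 times that in CTRL 17.

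IFI44 (ENSG00000137965), a cytoplasmic protein of the same response, held 204, 568, 165 and 758 in CTRL 17, 31, 44 and 70, 602, 678, 752, 892 and 1005 in Chemo 19, 30, 33, 34 and 67 and 516, 517, 667, 421 and 318 in MC 6, 41, 42, 48 and 59, and the 6 MC + Chemo libraries ran from 635 to 1122 with a median of 733. CTRL 70 lay above all MC libraries and inside both groups with chemotherapy. Its change was 0.20 ± 0.33 in MC, close to 0, and 0.89 ± 0.33 in MC + Chemo (adjusted p = 0.841 and 0.118). The remaining genes of this set, IFI27, IFI44L, XAF1, SP110 and LGALS3BP, had changes from 0.68 ± 0.54 (XAF1) to 1.31 ± 0.45 (IFI27) in MC + Chemo, none called by edgeR.

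**Figure D3:**
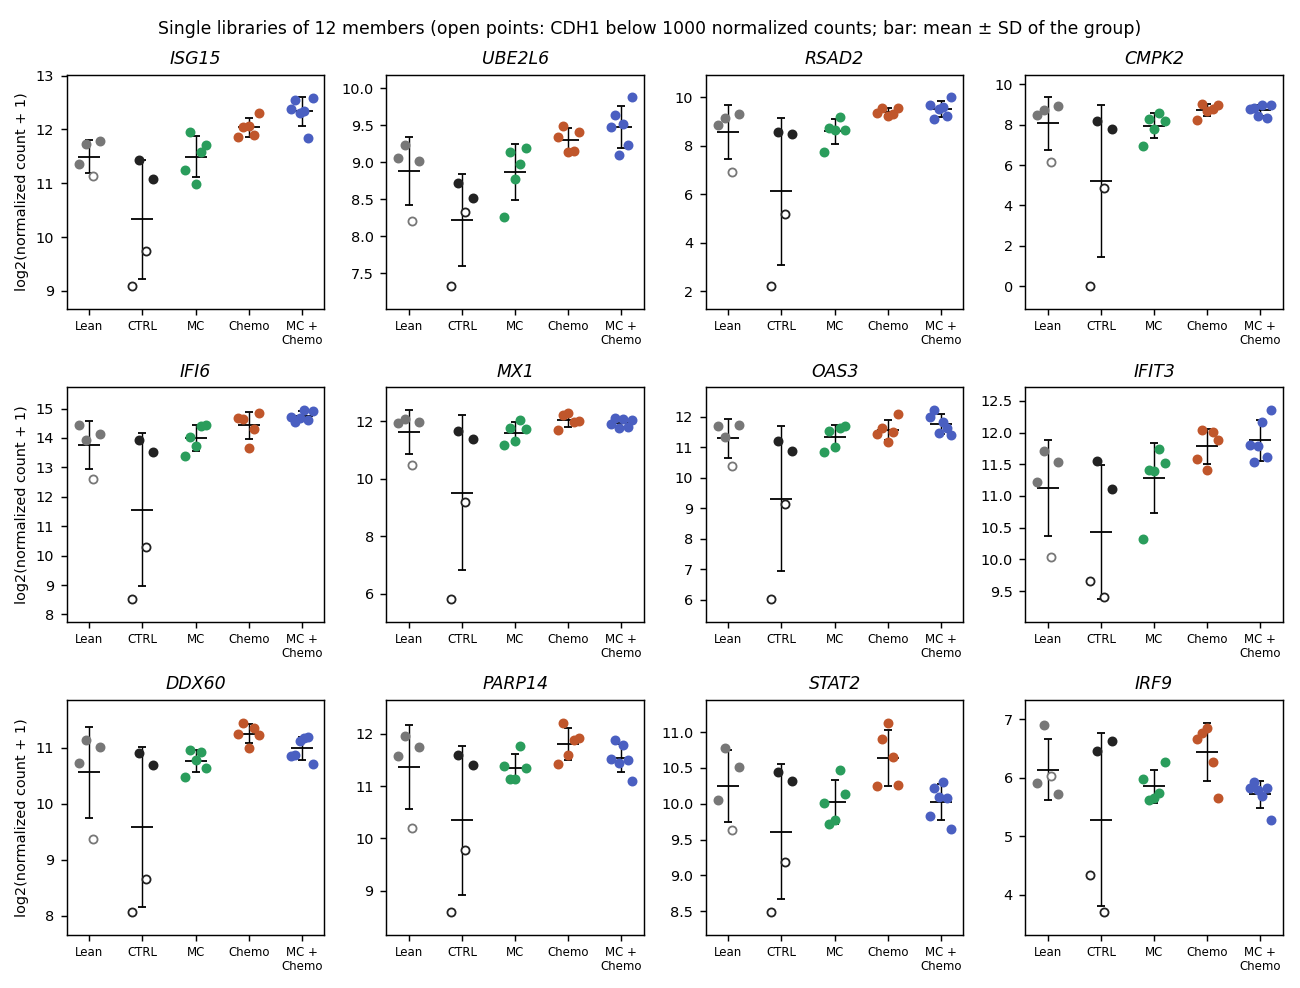
Each panel shows 1 member, with log2(normalized count + 1) of every library by group, open points for the 3 libraries with CDH1 below 1000, and bars for the group mean ± SD. In CTRL the open points fall below the filled ones in all 12 panels. The filled CTRL points lie below both groups with chemotherapy for ISG15, UBE2L6, RSAD2, CMPK2 and MX1. They lie among the points of one or both of these groups for IFI6, OAS3, IFIT3, DDX60, PARP14, STAT2 and IRF9.

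Fold changes between MC + Chemo and MC or Chemo compare none of the 3 libraries with low CDH1, but CTRL 17 and CTRL 44 entered the estimate of the spread in the fit of 20 libraries. MC + Chemo against MC asks what chemotherapy, together with its injections, does on the diet with the concentrate. The members had a median log2 fold change of 0.39, with 38 of 40 above 0 (48.6% of all genes) and STAT2 and IRF9 below. No member was called by edgeR or DESeq2 over 20 libraries (0.0% of all genes by edgeR, and 0.0053% were higher by DESeq2), and 6 had an unadjusted p below 0.05 (3.3% of all genes in this direction). DESeq2 fitted without the 3 libraries called ISG15, RSAD2 and DHX58 (42 genes in all, 0.252%). In 4 members, PARP9, DHX58, IFI27 and IFI6, all 6 MC + Chemo libraries lay above all 5 MC libraries, an order seen in 0.815% of all genes.

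For IFI6 the MC libraries ended at 22200.0 and MC + Chemo began at 23832. For DHX58 the MC libraries ranged from 115 to 162 (median 127, n = 5) and MC + Chemo from 169 to 215 (median 204, n = 6). For ISG15 (0.81 ± 0.29) a two-sided exact permutation test of the difference in mean log2 value gave p = 0.00649, not adjusted for the 40 members, where the smallest this design allows is 0.00216. The adjusted p-values in edgeR were 0.597 for ISG15 and 0.761 for IFI6.

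MC + Chemo against Chemo asks what the concentrate adds to chemotherapy. The median was -0.01 with 15 of 40 above 0 (51.3% of all genes), and -0.01 with 18 of 40 without the 3 libraries. No member was called by either tool (0.0% of genes by edgeR, 0.0795% by DESeq2), and none lay wholly above Chemo (0.432% of all genes). STAT2 alone had an unadjusted p below 0.05 in edgeR, in the lower direction, where 7.13% of all genes did. Its Chemo libraries, at 1216 to 2236, were all above the MC + Chemo libraries except that MC + Chemo 47 passed Chemo 19 and Chemo 67, and the log2 fold change was -0.64 ± 0.26 (adjusted p = 0.416, exact permutation p = 0.00866). IRF9 had -0.78 ± 0.38 (adjusted p = 0.485, exact permutation p = 0.0195), with Chemo 67 at 49.3 inside the MC + Chemo libraries. DESeq2 without the 3 libraries called STAT2 lower (-0.63, adjusted p = 0.0473, with 148 genes called in all). The largest difference in the other direction was 0.55 ± 0.42 in IFITM1, whose Chemo group contains the low library Chemo 33.

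Averaged over both diets, chemotherapy gave a median of 0.76 with 40 of 40 members above 0 (46.7% of all genes). edgeR called none (0.0% of all genes), and 37 had an unadjusted p below 0.05 (7.65% of all genes in this direction), with an adjusted p of 0.0853 for each of ISG15, UBE2L6, HERC5, OASL, SAMD9 and IFIT2. DESeq2 called 16 members higher (1.18% of all genes). Without the 3 libraries with low CDH1 the median was 0.42 with 39 of 40 above 0, and edgeR called no gene. DESeq2 then called 13 members higher, ISG15, RSAD2, UBE2L6, IFI6, DHX58, SAMD9, DTX3L, HERC6, HERC5, IFIT2, IFI35, CMPK2 and IRF7, out of 53 genes called in either direction (0.385% of all genes). Over all genes, DESeq2 called 473 with all libraries and 53 without the 3. ISG15 had 1.11 ± 0.22 with all libraries and 0.79 without the 3, and RSAD2 1.33 ± 0.41 and 0.87.

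Averaged over chemotherapy, the concentrate gave a median of 0.30 with 38 of 40 above 0 (48.7% of all genes), and -0.01 with 19 of 40 without the 3 libraries. No member was called by edgeR or DESeq2 with all libraries (0.0% and 0.638% of all genes), and 4 had an unadjusted p below 0.05 in edgeR (4.22% of all genes were higher at that level). Without the 3 libraries, DESeq2 called IRF9 lower (-0.73, adjusted p = 0.0185, with 189 genes called in all). The interaction, which asks whether the effect of both differs from the sum of each, was below 0 in all 40 members, with a median of -0.72, where 49.5% of all genes lay above 0. It was not called for any member by either tool (0.0% and 0.0106% of all genes), 4 had an unadjusted p below 0.05 (3.93% in this direction), and its median was -0.08 without the 3 libraries.

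The diets without treatment were compared as Lean against CTRL in a fit of all 24 libraries. No saline injection or treatment period is given here for Lean, so diet and injection cannot be told apart. The members had a median of 0.70 with 40 of 40 above 0 (47.5% of all genes), from 0.25 in IFITM1 to 1.30 in CMPK2, and neither tool called any (0.0% of genes by edgeR, 0.0106% by DESeq2). In edgeR 15 had an unadjusted p below 0.05 (2.77% of all genes in this direction). Both groups hold a library with low CDH1 and low members. Without CTRL 17, CTRL 44 and Lean 24 the median was 0.31 with 35 of 40 above 0 and no call by either tool. Then 3 Lean and 2 CTRL libraries remained, and in 20 of 40 members all of the former lay above the latter (10.6% of all genes). With all libraries no member did (1.13% of all genes).

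The number of called members changed with the libraries that entered, and so did that of all genes. For MC + Chemo against CTRL, edgeR called 7 members with all libraries, 0 without CTRL 17, 0 without CTRL 44 (0% of all genes in both), 27 without CTRL 31 (8.94%) and 19 without CTRL 70 (6.77%). Leaving out single MC + Chemo libraries gave 0 without MC + Chemo 47 or 52 (0%) and 3 to 6 otherwise (0.528% to 2.75%). For Chemo against CTRL the count was 30 without CTRL 31 (8.73%), 17 without CTRL 70 (4.47%) and 0 in every other run (0%). DESeq2, run the same way, called 0 to 29 members in Chemo, with 0 when CTRL 44 was absent (0.138% to 12% of all genes), and 9 to 29 in MC + Chemo (1.61% to 12.4%).

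**Figure D4:**
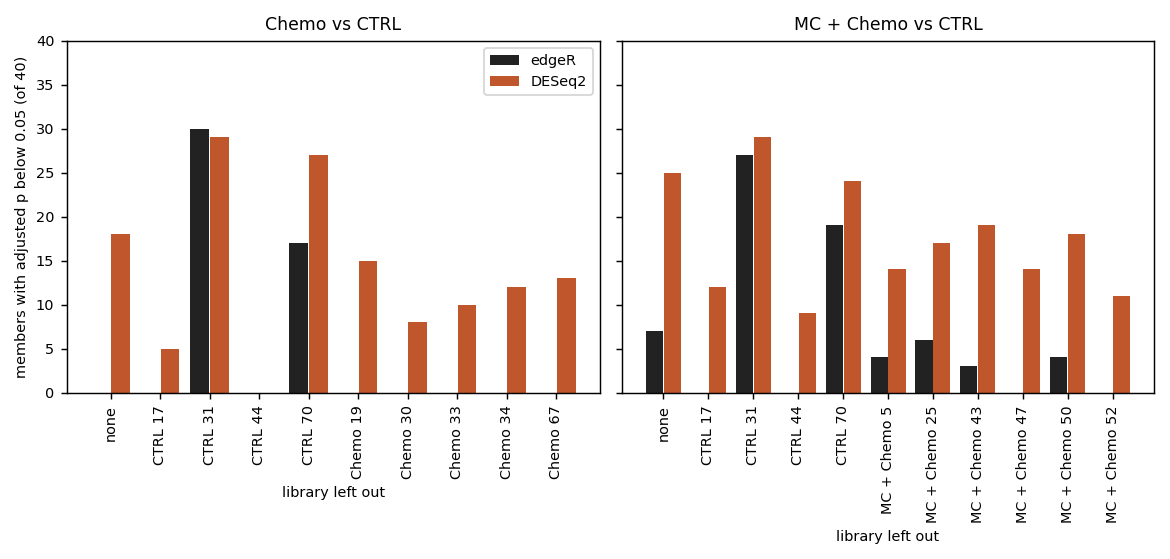
Bars give the number of the 40 members with an adjusted p below 0.05 after leaving out the library named on the horizontal axis, for edgeR and DESeq2. Counts rise to between 17 and 30 without CTRL 31 or CTRL 70 and, for edgeR, drop to 0 without CTRL 17 or CTRL 44.

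Other genes of the pathway were taken from lists of ligands, receptors and kinases, sensors and adaptors, negative regulators, and further targets. In MC + Chemo against CTRL, edgeR called 0 of 11 receptors and kinases, 0 of 19 sensors and adaptors, 0 of 10 negative regulators, 1 of 19 targets weighted to interferon gamma and 4 of 40 other interferon-stimulated genes, all higher, where 2.09% of all genes were called in either direction. Unadjusted p-values were below 0.05, in either direction, in 6, 9, 1, 13 and 19, as in 22.7% of all genes, DESeq2 called 2, 5, 0, 8 and 11 higher, and it called CXCL9 of the gamma-weighted list lower. The lists' median log2 fold changes were 0.34, 0.20, 0.03, 0.88 and 0.59. In Chemo edgeR called none, with an unadjusted p below 0.05 in 3, 10, 0, 10 and 18 (18.2% of all genes), and DESeq2 called 1, 2, 0, 5 and 10, with medians of 0.21, 0.44, 0.06, 0.90 and 0.58. In MC neither tool called any, with an unadjusted p below 0.05 in 2, 2, 0, 8 and 11 (10.7% of all genes) and medians of 0.20, 0.11, 0.03, 0.62 and 0.34. Without the 3 libraries with low CDH1, edgeR called no gene of these lists in the 3 comparisons, and DESeq2 called 1 of the other interferon-stimulated genes in MC + Chemo. The medians were then 0.16, 0.18, -0.05, 0.39 and 0.28 in MC + Chemo, 0.12, 0.09, -0.01, 0.34 and 0.33 in Chemo and -0.02, -0.03, -0.06, -0.05 and 0.08 in MC. Unadjusted p-values were below 0.05 in 0, 3, 0, 6 and 10 (11.8% of all genes), in 0, 1, 0, 6 and 10 (3.31%) and in 0, 0, 0, 1 and 3 (5.02%) in the same order of comparisons.

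The called target of the gamma-weighted list was GBP5, a guanylate-binding protein, which ranged from 0 to 6.5 normalized counts in CTRL and from 14.99 to 51.97 in MC + Chemo (3.07 ± 0.64, adjusted p = 0.0319). Of the other interferon-stimulated genes, ISG20 (an RNA exonuclease), LAMP3 (a lysosomal membrane protein), IFITM3 (a block to viral entry) and ZC3HAV1 (an antiviral zinc-finger protein) rose, with log2 fold changes of 0.98, 1.76, 1.17 and 0.61. CXCL9, a chemokine, went the other way, from 39.7 to 166 in CTRL and from 7.41 to 82.2 in MC + Chemo (-1.75 ± 0.56, adjusted p = 0.0826).

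Of 21 listed interferon genes 2 were in the human table and 1, IFNL1 of the type III family, had enough counts for the test. It was listed at 0 in CTRL 17 and CTRL 44 and reached 20.6 in CTRL, against 21.5 to 52.9 in Chemo, 11.8 to 32.8 in MC, 23.5 to 47.3 in MC + Chemo and 24.1 to 36.8 in Lean. Chemo and MC + Chemo thus lay above CTRL at these low counts, with changes of 1.88 ± 0.68 (adjusted p = 0.162) and 1.77 ± 0.66 (adjusted p = 0.121) in edgeR and adjusted p-values of 0.0477 and 0.0364 in DESeq2. The changes were 0.89 and 0.79 without the 3 libraries, and neither tool called it. The negative regulators, among them the SOCS proteins, summed to between 6047 and 6772 normalized counts in CTRL and to between 6266 and 6842 in MC + Chemo.

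The host was read from murine genes, which were counted apart. How reads that match both species were assigned is not given here. Of the members, 34 had a tested murine namesake. Their median log2 fold change was -0.26 in Chemo, -0.41 in MC and -0.28 in MC + Chemo, with 5, 4 and 7 of 34 above 0, and edgeR called none in any of the 9 comparisons. In these 3, 4, 5 and 6 namesakes had an unadjusted p below 0.05, where 4.53%, 11.8% and 12.4% of all murine genes did, and no murine gene at all was called. Without the 3 libraries the medians of the namesakes were 0.04, -0.09 and 0.03, with 19, 12 and 19 of 34 above 0. An unadjusted p below 0.05 was found in 0, 1 and 1 of them, and edgeR called none. The human members had medians of 1.10, 0.64 and 1.00 with all libraries and of 0.45, 0.02 and 0.45 without the 3. Within CTRL, the library with the lowest murine value was CTRL 70 in 17 of 34 namesakes, CTRL 44 in 12, CTRL 31 in 3 and CTRL 17 in 2. For the human members it was CTRL 17 in 35 of 40 and CTRL 44 in 5.

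Of the human leukocyte and endothelial list, 6 of 8 genes were in the table, and CD3E and CD79A were not in the symbol column. The list summed to 240 to 565 normalized counts in CTRL, 271 to 745 in Chemo and 221 to 434 in MC + Chemo. The list was chosen as genes that should be near 0 in the human counts. PTPRC was not near 0. It had the highest median of these genes over 24 libraries, 298, and ranged from 54.6 to 619. Whether murine reads entered the human counts was not tested. The medians of CD14, LYZ, PECAM1, VWF and CDH5 lay between 4.8 and 39.1. The murine macrophage list summed to 15307 to 22244 in CTRL, 15760 to 23631 in Chemo and 17665 to 24097 in MC + Chemo. The murine neutrophil list, with 4 of 5 genes in the table, summed to 254 to 2294 in CTRL, 979 to 7292 in Chemo and 584 to 6539 in MC + Chemo. The murine endothelial list was at 438 in CTRL 17 and at 2198 to 2869 in the other CTRL libraries, and it ran from 1879 to 2490 in Chemo and from 579 to 2563 in MC + Chemo. The fibroblast list was at 92630 in CTRL 17, above all other libraries (30415 to 74563). The adipocyte list ran from 331 to 5069 in CTRL and from 709 to 4674 in Chemo but reached 63440 in MC + Chemo 52, and the muscle list ran from 43 to 78 in CTRL and reached 39949 in MC + Chemo 43. The part of these host lists in the results was not tested. Proliferation genes of the human table, a list of 18, had a median change of -0.27 in Chemo and -0.09 in MC + Chemo, and neither tool called any (unadjusted p below 0.05 in 2 and 4). The medians were 0.02 and 0.12 without the 3 libraries.

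Across the 24 libraries the members moved with one another. The Pearson r of each member with the mean of the other 39 had a median of 0.95, was over 0.9 in 28 of 40, and was lowest in IRF9 (0.66). High likeness was not particular to the list, since 435 of 12633 other genes with a mean above 30 also had an r over 0.9 with the member level. The 435 were not sorted by function and include further targets of interferon, some of them named below. OAS1 and EPSTI1 could be counted among them under another name or identifier. Among the 15 most alike were ZBP1, ETV7, CXCL11, RTP4, ACKR2, EPHA1, ADAR, IL22RA1, CST6, PRRG4, a gene with the identifier ENSG00000204839 and no symbol, NOD2, LIPH and RBM47, with r from 0.98 down to 0.97. ZBP1 (a sensor of Z-form nucleic acid), CXCL11 (a chemokine), RTP4 and ADAR (an RNA-editing enzyme) are known targets of interferon, while LIPH, EPHA1 and RBM47 are known from epithelial cells. All these values share the 3 libraries with low CDH1 and are a description with no test.

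By the RefSeq annotation of GRCh38.p14, to which all 40 symbols were matched, 8 pairs of members are neighbours on a chromosome. They are IFI44L and IFI44 on chromosome 1, CMPK2 and RSAD2 on 2, PARP9 and DTX3L on 3, HERC6 and HERC5 on 4, SAMD9 and SAMD9L on 7, IFIT2 and IFIT3 on 10, OAS3 and OAS2 on 12, and MX2 and MX1 on 21. The spans of CMPK2 and RSAD2 and of PARP9 and DTX3L overlap there. Members also overlap genes outside the list, IFIT1, IFIT2 and IFIT3 with LIPA, EIF2AK2 with GPATCH11 and SP110 with SP140. Reads in a shared stretch could be given to either gene, and the counting rule is not given in the sources used here. Whether such reads entered these counts was not tested. In 3 of the 8 pairs of neighbours edgeR called 1 neighbour and not the other. DTX3L rose in MC + Chemo and PARP9 did not (adjusted p = 0.196), HERC5 rose and HERC6 did not (0.0974), and SAMD9 rose and SAMD9L did not (0.0715). The differences within these pairs were not tested.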

How the data were processed

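RNA of 24 xenograft tumours was sequenced as QuantSeq 3′ libraries with single reads of 50 bases and aligned by the authors with BlueBee software. The deposited raw counts are whole numbers of reads per Ensembl gene, and the deposited normalized signal is each count divided by 1 DESeq2 size factor per library, per the authors' tables. The submitters' processing notes name DESeq2 1.22.2. The human genome build and the rule for reads that match both species are not given in the sources used here. Genes with fewer than 72 counts over the 24 libraries are absent from the human table.

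Counts as deposited were fitted with edgeR 4.0.16 (quasi-likelihood F test, TMM scaling, default filter on low counts) in R 4.3.3, over the 20 libraries of the 4 high-fat groups, or all 24 for Lean against CTRL. Adjusted p-values are Benjamini-Hochberg values over all genes tested, with a threshold of 0.05. The 2 fits tested 16434 and 16588 human genes, and murine counts were fitted apart in the same way, with edgeR alone. DESeq2 1.42.0, the tool of the study, was the alternative. Both were tested on simulated data with known changes. Simulated libraries of a group shared the same expected level of each gene apart from depth. A split within a group, such as that in CTRL, was therefore not covered. Values per library are normalized counts, not divided by length, and log2 values and exact permutation tests (two-sided) used log2(normalized count + 1). Nothing in the labels says whether libraries share a litter or a day, so p-values measure the spread between these mice.

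Members, lists and comparisons were chosen with earlier results of these data known. Members described by library (with a range and median in MC + Chemo) were, in each role, the one with the highest mean normalized count, and in Chemo, MC and MC + Chemo against CTRL and in chemotherapy averaged over diets the 3 with the largest and 2 with the smallest absolute change. The 7 members called by edgeR and others given with values were added after their values were seen. Alternatives were DESeq2, its size factors, no filter, robust fitting, the 3 criteria of the study (adjusted p, a mean above 30 and a fold above 1.5), other libraries or groups in the fit, and each library left out. Leaving out the 3 libraries with CDH1 below 1000, from the human and the murine fits, and leaving out single libraries with DESeq2, were added after seeing the data. The 2 listed symbols that were not found were not analysed here, and no sequences were used. 1 further gene of the pathway is not reported here.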

Additional observations from a re-analysis of the deposited data

Results flagged for a closer look

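Within groups, 105 sets of 4 to 6 libraries were examined with Dixon's criterion at 95%, for 20 named members and the member level, and 3 held a library far from the others, where chance gives about 1 in 20. MX1 in Lean was at 1440 normalized counts in Lean 24 against a group median of 4013, with a ratio of gap to range of 0.860. Lean 24 is also one of the libraries with CDH1 below 1000. USP18 in MC was at 197 in MC 41 against a median of 109 (ratio 0.770), and MC 41 is one of the libraries with a further RNA cleanup. USP18 in MC + Chemo was at 222 in MC + Chemo 25 against a median of 122 (ratio 0.657). The part of these features in the values was not tested.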

How the results depend on the processing

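No paired analysis was possible because the groups shared no replicate number. Of the counts and medians of members, 451 alternatives kept within 1.5 times the count or 1 SD of the value and 49 did not. This SD, 0.626, is the SD of the member level pooled within groups, not an SD of the medians. It was widened by CTRL (SD 1.42) and Lean (0.61), against 0.08 to 0.20 in the other groups. By this wide rule, the median in MC + Chemo against CTRL counted as kept though it went from 1.00 to 0.45 without the 3 libraries. Counts of 0 that stayed at 0 also counted as kept. Members called against CTRL numbered 0 in Chemo, 0 in MC and 7 in MC + Chemo with edgeR, and 18, 0 and 25 with DESeq2, which called 16 in chemotherapy averaged over diets against 0. Leaving out single libraries, with either tool, gave 0 to 30 in Chemo, 0 to 12 in MC, 0 to 29 in MC + Chemo and 0 to 24 in chemotherapy averaged over diets. The shares of all genes called in these runs are given above for Chemo and MC + Chemo. No share is given for MC or chemotherapy averaged over diets, so those counts are not read as a result about the members. In MC + Chemo edgeR called 4 without MC + Chemo 5. It called 4 there without the libraries with RNA cleanup and 0 with its 2 groups alone. No share of all genes is given here for these runs either, so their counts are not read as a result about the members. Without the 3 libraries with CDH1 below 1000, edgeR called 0 there, and DESeq2 called 3, with 1 against Chemo, 3 against MC, 13 in chemotherapy averaged and 1 in MC averaged. The median member log2 fold change was then 0.45 in Chemo with either tool (0.446 and 0.453), 0.018 in MC and -0.085 and -0.081 for the interaction.

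Of the named genes, 2090 alternatives kept sign and side of the threshold, 184 passed it newly, 66 lost it and 40 changed sign. Without those 3 libraries (edgeR, then DESeq2) the log2 fold change in MC was -0.039 and -0.030 for DDX60, -0.11 and -0.10 for EIF2AK2, -0.45 and -0.44 for IFI44, -0.0059 (edgeR) for IFIT3, -0.69 and -0.69 for IRF9, -0.13 and -0.13 for PARP14, and -0.34 and -0.33 for STAT2. It was -0.060 and -0.060 for IRF9 in Chemo, -0.10 and -0.10 for IRF9 in chemotherapy averaged, and -0.36 and -0.34 for STAT2 in MC + Chemo. IFI44 in MC was -0.024 without the libraries with RNA cleanup. With single libraries left out, by either tool, IFI44 in MC ranged from -0.065 to 0.65, IRF9 from -0.25 to 0.57 in MC and from -0.38 to 0.43 in MC + Chemo, and STAT2 from -0.044 to 0.52 in MC and from -0.064 to 0.51 in MC + Chemo. The cause was not tested.

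An alternative based on motifs in promoters was not run, since no sequences were used. CMPK2, RSAD2 and USP18 rest on 0 to 4 reads in CTRL 17.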
